A study of Mus musculus with 2 samples.

Results

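The kinetochore and spindle checkpoint genes are the 41 genes whose symbol is Cenp followed by a single letter from a to x (20 genes) or is 1 of 21 names of kinetochore and checkpoint proteins, out of 53832 genes in the table. They were chosen by symbol alone, and all 41 were found, each on 1 row. The values come from polyadenylated RNA of mouse oocytes, named small oocytes in the sample titles, in 1 group of 2 libraries called replicates 1 and 2. Both libraries are from embryonic ovaries of females that were cultured at an added pressure of 33.3 kPa, after which cells carrying a CFP reporter for Stella (Dppa3) were sorted. No strain, embryonic age or untreated group is among the samples analysed here, so the values are levels in pressured cultures, and what pressure changes cannot be read from them. Nothing in the labels says that the replicates came from separate animals or cultures, so the spread between them can be technical.

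A kinetochore is the protein assembly that joins a chromosome to spindle microtubules. It is built on centromeric chromatin that carries the histone variant CENP-A, through an inner layer (the constitutive centromere-associated network) and an outer layer (the Mis12, Ndc80 and Knl1 proteins) that binds microtubules. Unattached kinetochores start the spindle assembly checkpoint, in which MAD2, BUBR1 and BUB3 hold back CDC20, the activator of the anaphase-promoting complex. Oocytes of newborn mice rest in prophase of the first meiotic division, long before they build a spindle, and RNA made in the oocyte is stored for later use.

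The libraries held 5019462 and 5274338 expected counts. Levels are given in TPM, the expected count per kilobase of merged exons rescaled to a fixed sum in each library, so that genes of different length can be compared. Oocyte markers were high, with all 12 expressed at a median of 947 TPM, whereas those of other cells in the ovary had few counts. The 8 granulosa markers summed to 43 and 27 counts in replicates 1 and 2, with Fshr at 0 in both, and the 6 stroma markers to 53 and 54, with Tcf21 at 0. The 8 endothelial, perivascular, blood and immune markers summed to 53 and 30 counts, with Emcn, Esam, Ptprc and Tyrobp at 0, and the 5 surface epithelium markers to 31 and 14. Some of these markers still reached 1 TPM in each library. Among granulosa markers 1 of 8 did, Nr0b1 at a mean of 2.36 TPM. Among stroma markers 2 of 6 did, Col1a1 at 1.81 and Dcn at 1.76 TPM. Among endothelial, perivascular, blood and immune markers 2 of 8 did, Pecam1 at 2.79 and Hbb-bs at 3.32 TPM. Among surface epithelium markers 1 of 5 did, Krt8 at 3.94 TPM. The 41 kinetochore and checkpoint genes together held 15096 and 15799 counts, or 0.301% and 0.300% of the libraries. In sorted bulk RNA, fewer expressing cells and less RNA per cell cannot be told apart.

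The promoters of these genes are described before the levels, because sequence is a property that the choice by symbol did not use. The motifs were nevertheless chosen with earlier results of these data known. The RefSeq table for GRCm38.p6, which gives the 250 bases before and 50 bases after each start, held 37 of the 41 genes. Spc24, Ska1, Nsl1 and Zwilch had no entry. The motif TTTGAA, the cell cycle genes homology region (CHR) to which the MuvB complexes of cell cycle genes bind, stood on either strand in the window of 13 of the 37 genes, or 35.1%. It stood in 13.8% of 9313 expressed protein-coding genes and in 17.7% of 16696 protein-coding genes of the table. The motif CCAAT, bound by NF-Y, was found for 21 of 37 genes (56.8%), against 43.9% of expressed and 42.4% of all protein-coding genes. Both motifs were present for 10 genes.

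The remaining motifs were rare. An E2F site (TTTGGCGC or TTTCGCGC, either strand) was found for 1 of 37 genes, Cenpl, and for 1.90% of expressed protein-coding genes. A Nobox element (TAATTA or TAATTG, either strand) was found for 3 of 37, or 8.11% against 8.70%. For 10 of the 37 genes (27.0%) a CHR match began within 50 bases of the start site, against 3.66% of expressed protein-coding genes, a distance that was set after the positions had been seen. These are matches of letters and show no binding, and no test was made of the shares.

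**Figure D1:**
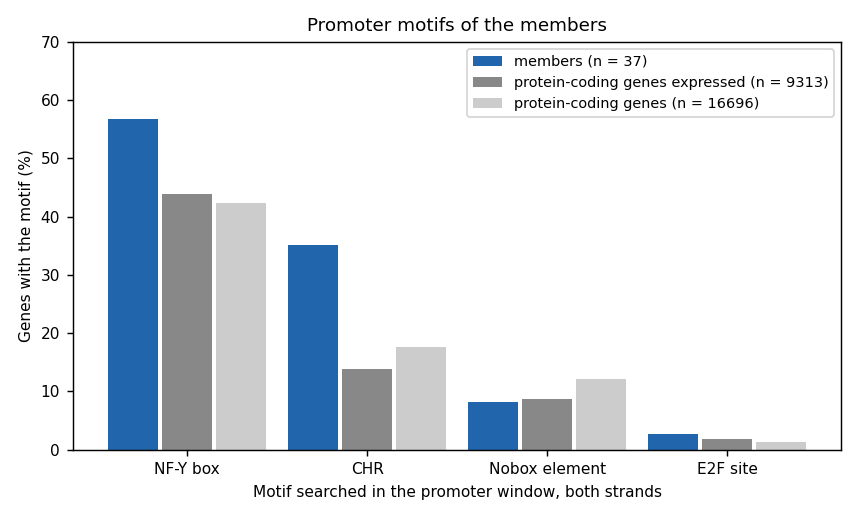
Share of genes (%, y axis) whose 300-base promoter window holds each of 4 motifs (x axis, NF-Y box being the CCAAT motif), for the members, expressed protein-coding genes and all protein-coding genes. The CHR bar of the members, at 35.1%, stands above the 13.8% of expressed genes, while the Nobox bars are 8.11% and 8.70%.

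The stretches below run from 120 bases before to 30 bases after the start site, 5′ to 3′ on the gene's strand, and show where the motifs lay in 6 genes picked from the 10 that hold both motifs, Cenpn and Cenpw both being of the centromere-associated network. Capitals mark CHR and CCAAT matches on either strand, TTCAAA and ATTGG being the reverse complements. In Cenpw the matches share 1 base, and in Spc25 the CHR match is the last 6 bases.
Cenpa (chr5:30666766-30666915, + strand): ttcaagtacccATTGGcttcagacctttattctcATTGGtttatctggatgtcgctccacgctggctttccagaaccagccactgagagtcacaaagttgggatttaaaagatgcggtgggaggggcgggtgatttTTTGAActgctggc
Cenpn (chr8:116921620-116921769, + strand): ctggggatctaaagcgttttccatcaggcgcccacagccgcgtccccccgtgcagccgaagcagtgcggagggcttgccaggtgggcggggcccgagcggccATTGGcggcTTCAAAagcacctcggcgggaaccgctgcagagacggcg
Cenpw (chr10:30200511-30200660, - strand): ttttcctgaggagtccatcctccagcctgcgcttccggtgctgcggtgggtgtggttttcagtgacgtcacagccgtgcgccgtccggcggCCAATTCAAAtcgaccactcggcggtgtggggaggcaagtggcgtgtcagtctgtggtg
Spc25 (chr2:69206184-69206333, - strand): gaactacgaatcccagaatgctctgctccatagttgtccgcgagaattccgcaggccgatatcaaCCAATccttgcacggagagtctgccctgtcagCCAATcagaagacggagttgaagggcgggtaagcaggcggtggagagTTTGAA
Cenpf (chr1:189688057-189688206, - strand): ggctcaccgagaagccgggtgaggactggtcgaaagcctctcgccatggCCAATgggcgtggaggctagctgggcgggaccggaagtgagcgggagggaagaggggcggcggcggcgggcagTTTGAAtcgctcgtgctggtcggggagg
Ttk (chr9:83834569-83834718, + strand): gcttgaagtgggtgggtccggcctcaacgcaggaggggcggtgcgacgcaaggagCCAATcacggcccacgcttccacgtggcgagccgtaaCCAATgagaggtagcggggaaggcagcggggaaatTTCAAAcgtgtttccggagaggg
The CHR match began 9 bases before the start in Cenpn and 25 bases before it in Cenpw, and at base 3 after it in Cenpf, base 8 in Ttk, base 17 in Cenpa and base 25 in Spc25. In the genes with both motifs that are not shown, the match began farther from the start. Counted from the start, it lay at -162 in Cenpl, -135 in Pmf1 and 41 in Bub1b. In Bub3 it lay at -43 from one start and -167 from another. The 6 genes did not share a level: their mean TPM lay at 172 for Cenpn, 75.7 for Ttk, 61.0 for Spc25, 29.1 for Cenpf, 20.7 for Cenpw and 18.1 for Cenpa.

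RNA from every layer of the kinetochore, from centromeric chromatin to the checkpoint, was present. All 41 genes reached the threshold for expression, 1 TPM or more in each library, against 53.5% of 21722 protein-coding genes. At 10 TPM or more in each there were 37 of 41 genes, against 37.9% of protein-coding genes, and at 100 TPM or more there were 7, against 7.08%. The median of the 41 genes was 47.5 TPM, beside 2.57 TPM over all protein-coding genes and 24.2 TPM over the 11617 expressed ones, and 30 of the 41 stood above the last value. On the scale of log2(TPM + 1) the medians were 5.56 and 5.51 in replicates 1 and 2 for the 41 genes, against 1.81 and 1.83 for all protein-coding genes and 4.64 and 4.66 for expressed ones. The levels ran over a 37.8-fold range of mean TPM, and of the 40 pairs of neighbours in their order, 25 overlapped between libraries and so did not differ beyond their spread.

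**Figure D2:**
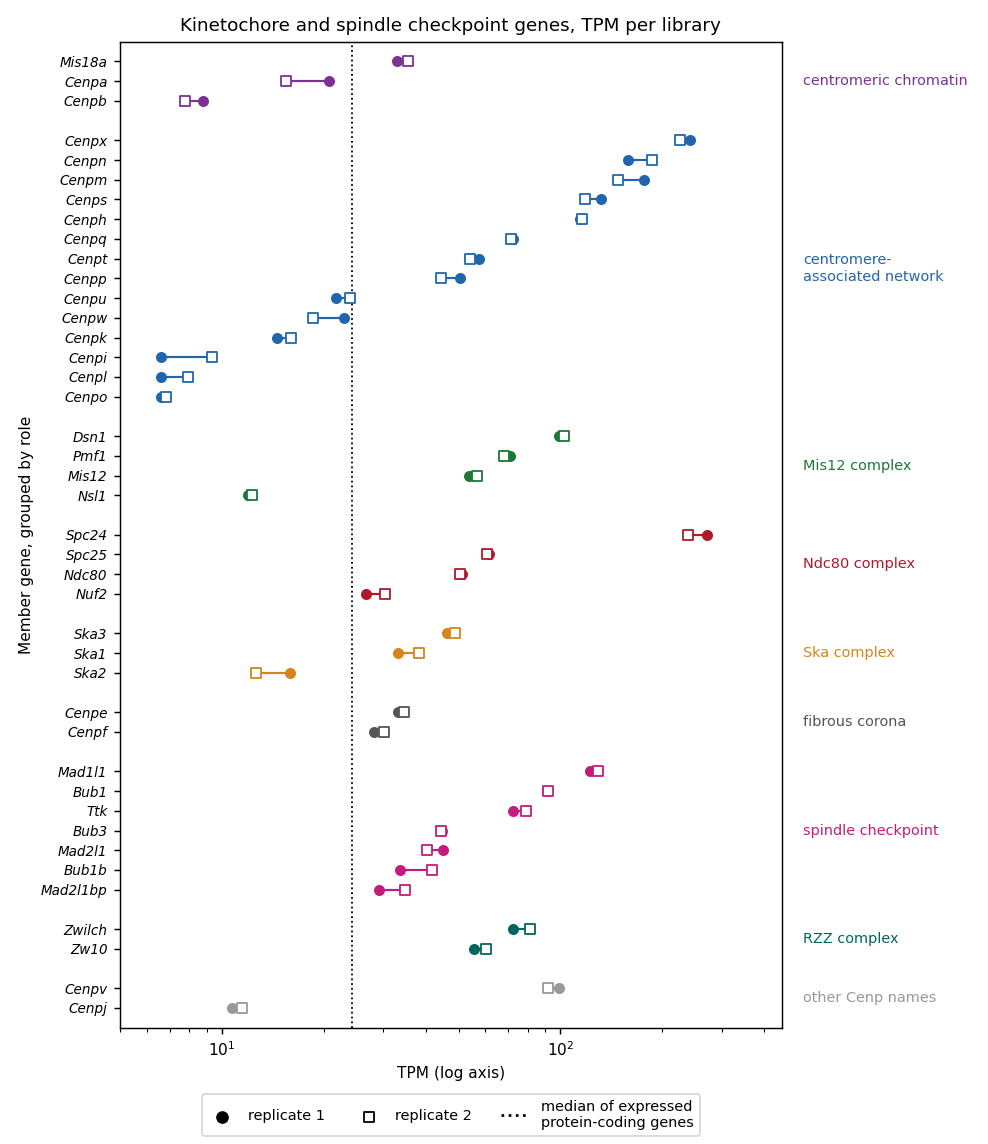
TPM (x axis, log scale) of each of the 41 genes (rows, grouped by role) in replicate 1 (filled circles) and replicate 2 (open squares), with a line joining the libraries and a dotted line at the median of expressed protein-coding genes, 24.2 TPM. The spread between genes of 1 complex is wider than that between libraries, from Cenpo at 6.72 to Cenpx at 233 in the centromere-associated network.

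Genes of centromeric chromatin itself were among the lower members. Cenpa (ENSMUSG00000029177, chromosome 5), which encodes the histone variant that marks the centromere, had 20.7 TPM in replicate 1 and 15.4 TPM in replicate 2, from 210 and 162 counts. Cenpb, whose protein binds a motif in centromeric satellite DNA, had 8.77 and 7.76 TPM. Mis18a, part of the complex that prepares centromeres for new CENP-A, had 33.0 and 35.4 TPM. The ranges of these 3 genes did not overlap, and the order Mis18a, Cenpa, Cenpb held in each library. Without length scaling, as CPM (the expected count rescaled to the library total alone), Mis18a had 32.5 and 34.5 and Cenpa 41.8 and 30.7, so that Cenpa was the higher in replicate 1 and by mean. Cenpb shares 20 bases of exon with Spef1 on the same strand, a gene with 17 and 7 counts.

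The 14 genes of the constitutive centromere-associated network, the inner kinetochore, were all expressed at a median of 51.5 TPM, and held both some of the highest genes and the 3 that were lowest by mean TPM, Cenpo, Cenpl and Cenpi. Cenpb, at 7.76 TPM in replicate 2, lay among these 3. Cenpx (ENSMUSG00000025144, chromosome 11, 1077 bases of exon), a histone-fold protein that also works with the DNA repair helicase FANCM, had 241 and 225 TPM. Its direct partner Cenps had 131 and 118 TPM. The other histone-fold pair of this 4-gene assembly was lower, with Cenpt at 57.3 and 54.0 TPM and Cenpw at 23.0 and 18.5 TPM. Cenpx therefore exceeded Cenpw 10.5-fold in replicate 1 and 12.1-fold in replicate 2 in TPM, and 2.68-fold and 3.11-fold in CPM.

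Subunits that bind each other directly stood far apart elsewhere in the inner kinetochore too. Cenpn (ENSMUSG00000031756, chromosome 8), whose protein recognises CENP-A nucleosomes, had 159 and 186 TPM. Its partner Cenpl had 6.61 and 7.93 TPM, and the ratio of Cenpn to Cenpl was 24.0 in replicate 1 and 23.5 in replicate 2 in TPM, and 13.9 and 13.6 in CPM. In the assembly of CENP-H, CENP-I, CENP-K and CENP-M, Cenpm had 176 and 148 TPM and Cenph 115 and 116 TPM. Cenpk, at 14.5 and 16.0 TPM, and Cenpi, at 6.62 and 9.32 TPM, were the low subunits there. Cenpm exceeded Cenpi 26.6-fold in replicate 1 and 15.9-fold in replicate 2 in TPM, and 7.57-fold and 4.52-fold in CPM. The value of Cenpk depends on its annotated length: with its longest transcript in place of all merged exons it had 28.4 and 31.4 TPM.

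In the assembly around CENP-O, which helps to place the kinase PLK1 at the kinetochore, Cenpq had 72.5 and 71.5 TPM, Cenpp 50.6 and 44.3 TPM and Cenpu 21.7 and 23.8 TPM. Cenpo (ENSMUSG00000020652, chromosome 12), the lowest of the 41 genes by mean TPM, had 6.62 and 6.83 TPM, with counting intervals of 5.27 to 8.20 and 5.48 to 8.40 TPM at 95%. The levels of Cenpo, Cenpi and Cenpl lay within each other's spread, and with the longest transcript as length Cenpb (6.83 and 6.06 TPM) and Cenpl (at most 7.22 TPM) were below Cenpo (8.60 and 8.91 TPM). Itgb3bp, the mouse gene of CENP-R, which the choice by symbol did not include, had 11.4 and 12.3 TPM. Exons of 11 of the 41 genes overlap those of neighbours on the opposite strand, in this assembly those of Cenpu, Cenpo, Cenpp and Cenpq. Cenpu shares 26.7% of its exon bases with Primpol, and Cenpp shares 12.3% with Ippk, a gene with 1393 and 1607 counts. Cenpo shares 19.0% with Adcy3, which had 5 and 2 counts, and 3.47% with Ptrhd1, which had 170 and 180 counts. Cenpq shares 3.65% with Mut, which had 207 and 252 counts. Among the genes outside this assembly, Mis12 shares 7.69% with Derl2 (197 and 190 counts) and Zwilch 5.93% with Lctl (15 and 22 counts). Cenpk shares 4.45% with Ppwd1 (215 and 139 counts) and Ska3 2.88% with Sap18 (1095 and 1019 counts). Whether the authors counted by strand is not given in the sources used here, so reads of these pairs may not have been told apart.

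The outer kinetochore was led by Spc24. The 4 genes of the Ndc80 complex, which holds the microtubule, were expressed at a median of 55.9 TPM. Spc24 (ENSMUSG00000074476, chromosome 9, 21755442 to 21760303), which anchors the complex to the inner layers together with Spc25, was the highest of the 41 genes at 271 and 238 TPM. Spc25 had 61.4 and 60.7 TPM, so that Spc24 exceeded its partner 4.41-fold in replicate 1 and 3.92-fold in replicate 2. The microtubule-binding pair was closer together, with Ndc80 at 51.3 and 50.3 TPM and Nuf2 at 26.7 and 30.3 TPM, a ratio of 1.92 and 1.66. The range of Spc24 overlapped that of Cenpx, so no order of those 2 genes is read.

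The Mis12 complex, which links the inner layer to Ndc80, had a median of 62.3 TPM over its 4 genes. Dsn1 had 99.3 and 102 TPM, Pmf1 71.1 and 67.9 TPM and Mis12 53.6 and 56.6 TPM. Nsl1 had 11.9 and 12.3 TPM and was the low subunit in both libraries, 8.34-fold and 8.32-fold below Dsn1 in TPM, and 5.28-fold and 5.26-fold below it in CPM. The Ska complex, which strengthens the hold on microtubules in mitosis, was lower, with Ska3 at 46.2 and 48.8 TPM, Ska1 at 33.2 and 38.2 TPM and Ska2 at 15.9 and 12.6 TPM. Of the fibrous corona, the outermost layer, the kinesin gene Cenpe had 33.1 and 34.4 TPM and Cenpf had 28.1 and 30.1 TPM. Cenpf is the longest of the 41 genes at 15433 bases of merged exons, so it ranked 4 by counts, with 750 and 833, but 29 by TPM.

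Checkpoint genes were all above the median of expressed protein-coding genes. The 7 genes had a median of 44.6 TPM, and the highest exceeded the lowest 4.19-fold in replicate 1 and 3.72-fold in replicate 2 in TPM, and 12.0-fold and 10.7-fold in CPM. Mad1l1 (ENSMUSG00000029554, chromosome 5), whose protein brings MAD2 to unattached kinetochores, led with 122 and 129 TPM. The kinases Bub1 and Ttk (MPS1), which act at the top of the checkpoint, followed, Bub1 with 91.1 and 92.0 TPM and Ttk with 72.4 and 79.1 TPM.

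The genes of the inhibitor that holds back CDC20 lay close together in TPM from merged exons, but not under other length settings. Bub3 had 44.7 and 44.5 TPM, Mad2l1 (MAD2) had 45.1 and 40.3 TPM and Bub1b (BUBR1) had 33.6 and 41.7 TPM. These ranges of Bub3, Mad2l1 and Bub1b overlapped from neighbour to neighbour. In CPM Bub3 had 108 and 106 and Mad2l1 130 and 115, above Bub1b at 49.4 and 60.7. With the longest transcript as length Bub3 had 60.7 and 60.6 TPM. Mad2l1 (38.9 and 34.9 TPM) and Bub1b (30.5 and 38.0 TPM) were then both lower. Mad2l1bp, whose protein p31comet takes MAD2 out of that inhibitor, was the lowest checkpoint gene at 29.1 and 34.6 TPM, from 64 and 79 counts. Of the complex that brings dynein and MAD1 to kinetochores, Zwilch had 72.3 and 81.4 TPM and Zw10 had 55.7 and 60.4 TPM. Its other subunit, Kntc1, had 52.4 and 55.7 TPM, so the 3 subunits lay between 52.4 and 81.4 TPM.

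A pair of genes share the Cenp name without a place in these assemblies. Cenpv had 98.8 and 91.7 TPM. Cenpj, whose protein builds centrioles, had 10.7 and 11.4 TPM. Their ranges did not overlap.

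Other genes of cell division give the setting of these levels. All 18 other kinetochore and checkpoint genes were expressed at a median of 27.6 TPM, beside 47.5 TPM for the 41 genes. Hjurp, the chaperone that loads CENP-A, was their highest at 193 ± 14.0 TPM (SD, n = 2), against 18.1 ± 3.78 TPM for Cenpa itself, and Bod1 followed at 174 ± 11.5. The scaffold Knl1, on which BUB1 and BUBR1 gather, stood at 17.3 ± 1.51 and Cenpc1, the mouse gene of CENP-C, at 16.0 ± 0.219. Meikin, a meiosis-specific kinetochore protein that keeps sister kinetochores together in the first division, was their lowest at 6.87 ± 1.66 from 15 and 22 counts, and Sgo2a, which protects centromeric cohesion, stood at 8.99 ± 0.215.

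The target of the checkpoint was present as well. All 19 genes of the anaphase-promoting complex and its helpers were expressed at a median of 80.7 TPM, with Ube2c at 611 ± 20.8 and Anapc5 at 344 ± 15.1 above Anapc10 at 11.7 ± 1.35 and Cdc26 at 6.80 ± 0.264. Cdc20, to which MAD2 and BUBR1 bind, stood at 84.3 ± 8.75 TPM, above Mad2l1 at 42.7 ± 3.40 and Bub1b at 37.6 ± 5.75. That order depended on length scaling. In counts, Cdc20 had 292 and 261.91 in replicates 1 and 2, below Mad2l1 with 653.01 and 606. Bub1b, with 248 and 320 counts, lay below Cdc20 in replicate 1 and above it in replicate 2. The 6 genes of Aurora kinases and the chromosomal passenger complex had a median of 82.0 TPM, from Birc5 at 291 ± 8.34 and Incenp at 145 ± 8.92 to Aurkb at 19.5 ± 1.11 and Aurkc at 7.20 ± 1.60, whose fractional counts of 21.92 and 16.58 show reads shared with other genes. All 15 replication licensing genes were expressed at a median of 61.9 TPM, from Gmnn at 159 ± 8.13 and Mcm5 at 137 ± 5.93 to Orc4 at 18.6 ± 0.825 and Cdc6 at 9.59 ± 1.66.

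The 6 proliferation markers were also all expressed, at a median of 33.0 TPM. Ccna2 stood at 53.2 ± 2.22, Rrm2 at 43.0 ± 3.62, Mki67 at 29.5 ± 0.482, Top2a at 10.2 ± 0.631 and Tk1 at 9.20 ± 1.83. The part of any other dividing cell in the kinetochore values was not tested, and the markers of granulosa cells stood at 43 and 27 counts in sum, as given above. No test set these lists against each other, so no order of lists is read from their medians.

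**Figure D3:**
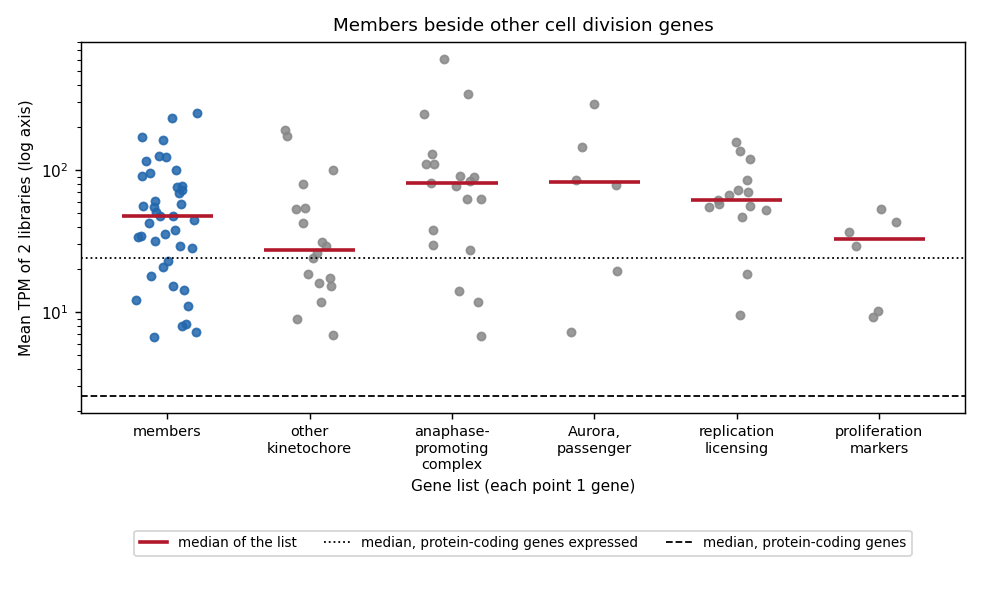
Mean TPM over 2 libraries (y axis, log scale) of each gene (points) in the member list and in 5 other lists of cell division genes (x axis), with the median of each list as a red line. The members span 6.72 to 254 TPM around a median of 47.5, and every list median lies above the 24.2 TPM of expressed protein-coding genes (dotted) and the 2.57 TPM of all protein-coding genes (dashed).

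The last comparison sets replicate 2 against replicate 1 and so compares 2 libraries of the same treatment, not conditions. In the exact binomial test with Benjamini-Hochberg adjustment over 12182 genes, 0 of the 41 genes differed at least 2-fold with an adjusted p below 0.05, against 0.673% of all genes tested. Without the minimum of 2-fold, 3 of 41 passed, against 7.84% of all genes, and 7 of 41 had an unadjusted p under 0.05, against 20.7%. Of the 41 genes, 24 had a log2 ratio above 0, against 50% of all genes tested, and their median log2 ratio was 0.03. The median size of the log2 ratio in either direction was 0.11 for the 41 genes and 0.15 for all genes.

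The 3 genes that passed without a fold minimum were Cenpn, Spc24 and Cenpa. Cenpn was higher in replicate 2, with 1099 counts against 903 in replicate 1, a log2 ratio of 0.22 (counting SE 0.06, adjusted p = 0.0177, exact binomial test). Spc24 was lower in replicate 2, with 1097.31 counts against 1203, a log2 ratio of -0.20 (counting SE 0.06, adjusted p = 0.0184, exact binomial test). Cenpa was lower in replicate 2, with 162 counts against 210, a log2 ratio of -0.44 (counting SE 0.15, adjusted p = 0.0475, exact binomial test). The largest ratio upward was that of Cenpi at 0.48 (counting SE 0.23) with 95 counts in replicate 2 and 65 in replicate 1, which did not pass (adjusted p = 0.214, exact binomial test).

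These p-values allow for counting noise alone, whereas the counts of all genes tested spread more widely, at 3.55 for chi-square over its degrees of freedom. With a negative binomial exact test at a preset biological coefficient of variation of 0.1, none of the 41 passed, and the adjusted p of each was 1. The coefficient found for these 2 libraries was lower, at 7.31%, and no test result at that value is given. The replicate spread of the 41 genes, as SD over mean of TPM, had a median of 5.79% and reached 23.9%.

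**Figure D4:**
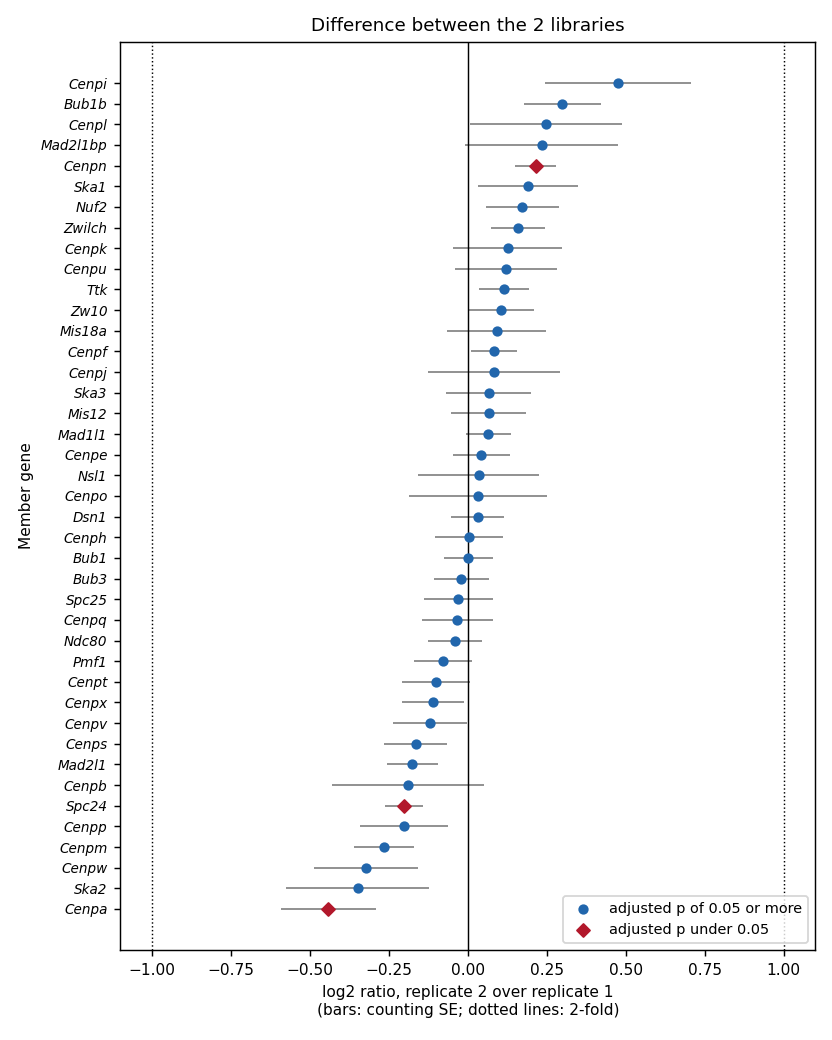
Log2 ratio of replicate 2 over replicate 1 (x axis) for each of the 41 genes (rows), with bars of 1 counting SE, diamonds for an adjusted p under 0.05 in the exact binomial test and dotted lines at 2-fold. All points lie between -0.44 (Cenpa) and 0.48 (Cenpi), inside the 2-fold lines.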

How the data were processed

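Per the submitters' processing notes, reads were processed with fastp 0.20.0, STAR 2.7.7a and RSEM on GRCm38. The version of RSEM, the annotation release and the strand setting are not given in those notes. Per the labels' protocols, RNA was captured by its poly(A) tail, made into directional libraries and amplified by 12 PCR cycles. The authors deposited expected counts for each gene, scaled neither for depth nor length; reads matching several genes are split, and 6 of the 41 genes had fractional values. The table has 21 further columns of per-sample values of other origin, which were left out because their names fit no sample analysed here.

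Gene lengths and positions came from GENCODE release M21 (GRCm38), which matched 53579 of 53832 IDs and all 41 genes. TPM was computed from merged exons, and expressed means 1 TPM or more in each library. For the comparison of libraries, expected counts were rounded, filtered by filterByExpr and scaled by TMM (edgeR 4.0.16, R 4.3.3), and each gene was tested by a two-sided exact binomial test; log2 ratios used a prior count of 0.5. On simulated counts with 200 changed genes the procedure was tested before use. Those counts held counting noise alone, whereas the real counts spread more widely, at 3.55 for chi-square over its degrees of freedom. The simulation therefore cannot show how many false calls arise in these libraries. Intervals cover counting error only, since PCR copies without molecular identifiers are not independent molecules. Alternatives were CPM, the longest transcript as length, totals without mitochondrial genes, other thresholds and pseudocounts, DESeq2 1.42.0 size factors or plain totals, no count filter, no fold minimum, a negative binomial test, and single libraries. Tables and figures used Python 3.11.15. The members and gene lists, the assemblies inside the inner kinetochore, the motifs and the tests were chosen with earlier results of these data known. All members are named, and of the other lists the 2 highest, the 2 lowest and genes fixed by name; Kntc1 was added after its value was seen.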

Additional observations from a re-analysis of the deposited data

How the results depend on the processing

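All 41 genes were expressed under a TPM threshold of 5, a CPM threshold of 1, the longest transcript as length, and in each library alone. The median log2 level of 5.53 was 6.05 with CPM in place of TPM, 5.48 with the longest transcript, 5.68 with totals without mitochondrially encoded genes, and 5.51 to 5.56 in single libraries. Ratios within a complex depended on length. The genes highest and lowest by mean TPM were kept as the pair under each setting, and their ratio is a mean over libraries. With CPM it was 5.14 in place of 34.7 for the centromere-associated network (Cenpx over Cenpo), 5.27 in place of 8.33 for Mis12, 3.65 in place of 9.00 for Ndc80 and 1.48 in place of 1.32 for Zwilch over Zw10. With the longest transcript it was 25.6 for the network, 9.75 for Mis12 and 1.43 for Zwilch over Zw10. With the highest and lowest genes taken anew, the network had 13.7 in CPM (Cenpn over Cenpl) and 34.3 with the longest transcript (Cenpx over Cenpl). Single libraries gave 33.0 to 36.4 for the network, 8.32 to 8.34 for Mis12, 7.84 to 10.2 for Ndc80, 2.91 to 3.87 for Ska and 1.30 to 1.35 for Zwilch over Zw10. With the longest transcript, the levels of 30 of 41 genes moved by more than 1 SD, from 0.780 times (Cenpb) to 1.96 times (Cenpk). That SD is over 2 libraries, so the count of 30 depends on how close the replicates lay. Bub1 counted as moved from 91.6 to 90.9 TPM (SD 0.663). Cenpa, from 18.1 to 21.7 TPM (SD 3.78), did not. Between libraries, 82 of all genes were called; 211 were without a filter on low counts, 13 with the negative binomial test and 955 without a fold minimum, where 3 of the 41 genes passed in place of 0. Without the filter and without a fold minimum, 2 of the 41 passed. No paired analysis was possible because there is 1 group.

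Depth limits the low members: with 64 to 95 counts for Cenpi, Cenpl, Mad2l1bp, Cenpb, Cenpo and Ska2, the counting SE of the log2 ratio reached 0.24.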

Other observations

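Some kinetochore and checkpoint genes start back to back with another gene. In GENCODE M21, 10 of the 41 genes (24.4%) had the start of a protein-coding gene on the opposite strand within 1000 bases upstream, against 11.2% of 11617 expressed protein-coding genes and 6.85% of all protein-coding genes in the table. This property was examined after the levels had been seen, and the shares were not tested. Among the pairs were Ska3 with Mrpl57, a gene of the mitochondrial ribosome, 49 bases apart, and Nsl1 with Tatdn3, 80 bases apart. Other partners were Nudt1 for Mad1l1, Lrrc45 for Cenpx, Parp4 for Cenpj, Rpl4 for Zwilch, Cmc2 for Cenpn, Nol8 for Cenpp and Prr11 for Ska2.

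Genes of such a pair did not have to be alike in level. Zwilch had 72.3 and 81.4 TPM in replicates 1 and 2, and the ribosomal protein gene Rpl4, 271 bases away, had 2736 and 2690 TPM. Cenpx had 241 and 225 TPM and Lrrc45 had 14.1 and 16.4 TPM, 187 bases away. Nsl1 had 11.9 and 12.3 TPM and Tatdn3 10.4 and 13.6 TPM, ranges that overlap. Ska3 had 46.2 and 48.8 TPM and Mrpl57 42.7 and 35.6 TPM.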
